A study of Mus musculus with 9 samples.

Results

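Elastic fibres and the enzymes that crosslink them are described here through 10 genes, Eln, Fbn1, Fbln1, Fbln2, Fbln5, Mfap5, Emilin1, Lox, Loxl1 and Loxl2, of the 26214 genes listed in the table. They were chosen by name, for the known role of their proteins in the fibre, with earlier results of these data known. All 10 were found in the table, and all 10 passed the filter on low values described further on.

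Elastic fibres let a tissue stretch and recoil. Each has a core of elastin laid down on a scaffold of fibrillin microfibrils, with fibulins and EMILIN proteins at the border between both, and enzymes of the lysyl oxidase family oxidise lysines of elastin and collagen so that the chains can bond to each other. Connective tissue cells of muscle and fat make most of these proteins, and the same enzymes crosslink the collagen that surrounds muscle fibres.

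The study compared stromal cells of muscle and fat from male C57Bl/6 mice (C57Bl/6 J in the methods) aged 8 to 12 weeks, 1 day after an injection into the right quadriceps. Fibro-adipogenic progenitors (FAPs), connective tissue cells of skeletal muscle, came from the quadriceps of mice that had received NaCl (FAP, 2 libraries) or 50% glycerol in saline, which damages the muscle (injured FAP, 3 libraries). Adipose stromal cells (ASCs), from subcutaneous fat, came from mice injected with NaCl (3 libraries). Both cell types were depleted of CD31+ and CD45+ cells with magnetic beads and then selected for Sca-1, and a single library of CD31+CD45+ cells came from glycerol-injected quadriceps.

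Several features of the design limit the groups as models. The replicates of a group came from cells pooled from 3 animals, so the spread between libraries may hold only technical variation, and the p-values below may then not carry over to other animals. Muscle was digested with collagenase B and dispase II and fat with collagenase and DNAse, so tissue and digestion cannot be told apart in comparisons of ASCs with FAPs. The CD31+CD45+ library has no replicate and entered no test. Injured FAPs and ASCs differed in tissue and in injection at once.

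RNA sequencing gave 27481573, 27349184 and 27402102 reads on genes in ASC replicates 1 to 3 and 24052508 and 24164447 in FAP replicates 1 and 2. The injured FAP libraries held 26968235, 26698572 and 27028114 reads, and the CD31+CD45+ library held 13091077. Values below are normalized read counts, in which reads have been divided by a size factor for each library. At this depth the lowest value of a member in the 8 stromal libraries, 1193 for Fbln5 in injured FAP replicate 2, rested on 1539 reads.

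The sorted cells were checked against their markers. Ly6a, the gene of Sca-1, stood at 46513, 49855 and 36777 in ASCs, 16542 and 10823 in FAPs and 24309, 21308 and 24855 in injured FAPs. Pdgfra, the usual marker of FAPs, stood at 12988 ± 2124 (SD, n = 3) for ASCs, 17755 ± 1.65 (SD, n = 2) for FAPs and 24051 ± 1074 (SD, n = 3) for injured FAPs, against 119 in the CD31+CD45+ library. Pecam1, which encodes CD31, stood at 46.4 to 83.0 for ASCs, 195 and 0 for FAPs and 121 to 269 for injured FAPs, against 45323 in the CD31+CD45+ library. Ptprc, which encodes CD45, was at 0 in both FAP libraries and in ASC replicates 1 and 3, and no stromal library exceeded 55.8, against 797 in the CD31+CD45+ library. Cd34, another marker of stromal progenitors, stood at 55027, 42885 and 54644 in ASCs, 32892 and 30696 in FAPs and 11933, 10736 and 11553 in injured FAPs, a fall after injury (log2 fold change -1.48, adjusted p = 7.79e-06 by limma). Pdgfra, Pecam1 and Ptprc therefore went with the labels of all 9 libraries. Ly6a and Cd34 did not set the CD31+CD45+ library apart, where they stood at 17672 and 17085.

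The 10 members together made up 0.921%, 0.933% and 1.025% of the normalized value of ASC replicates 1 to 3. The same share was 1.079% and 1.026% in FAPs and 1.15%, 1.18% and 1.13% in injured FAPs, against 0.408% in the CD31+CD45+ library. The share thus went up from ASCs to FAPs to injured FAPs without overlap, with ASC replicate 3 right next to FAP replicate 2, while single members moved in opposite directions.

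Differences between groups were tested with limma on the log2(value + 1) scale over 13601 genes, those whose mean in the 8 stromal libraries reached 10, with Benjamini-Hochberg adjustment. A change was called where the adjusted p was below 0.05 and the log2 fold change was above 0.58 or below -0.58. The question of the injury comparison is what changed in FAPs 1 day after glycerol. There, 7 of the 10 members passed, beside 52.6% of all genes tested, with 2 higher (24.9% of all genes) and 5 lower (27.7%). The median log2 fold change was -0.175 over the members and -0.051 over all genes tested. That of the members was -0.27 at a common 75th percentile (1 higher and 5 lower) and -0.04 on total reads (3 higher and 3 lower). With quantile normalization it was -0.19 (4 higher and 5 lower). Eln, Fbln1, Fbln5, Mfap5 and Loxl2 fell after injury, and Lox and Loxl1 rose.

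The comparison of ASCs with uninjured FAPs asks how stromal cells of fat differ from those of muscle. It found 6 of the 10 members changed, beside 47.2% of all genes tested, with 4 higher in ASCs (23.4% of all genes) and 2 lower (23.8%). The members' median log2 fold change was 0.289, against 0.005 over all genes, and it turned to -0.48 with quantile normalization (1 higher and 5 lower) and to -0.28 on total reads (2 higher and 4 lower). At a common 75th percentile it was 0.08 (2 higher and 3 lower). With single libraries left out it went from 0.15 (without ASC replicate 1) to 0.43 (without FAP replicate 1). Fbn1, Mfap5, Loxl1 and Loxl2 were higher in ASCs and Fbln2 and Emilin1 lower, although quantile normalization turned Mfap5 to -0.05. Between injured FAPs, from muscle, and ASCs, from fat, all 10 members passed, beside 50.8% of all genes tested, with 3 higher in injured FAPs (25% of all genes) and 7 lower (25.8%), and medians of -0.958 over the members and 0.021 over all genes. The members' median there was -0.19 with quantile normalization and -0.26 on total reads. Fbln2, Emilin1 and Lox were the higher ones, and of the lower ones Fbn1 and Loxl1 turned to 0.30 and 0.27 with quantile normalization and to 0.00 and 0.05 on total reads. The comparisons share libraries with each other, so their values are given side by side and not as separate evidence.

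**Figure D1:**
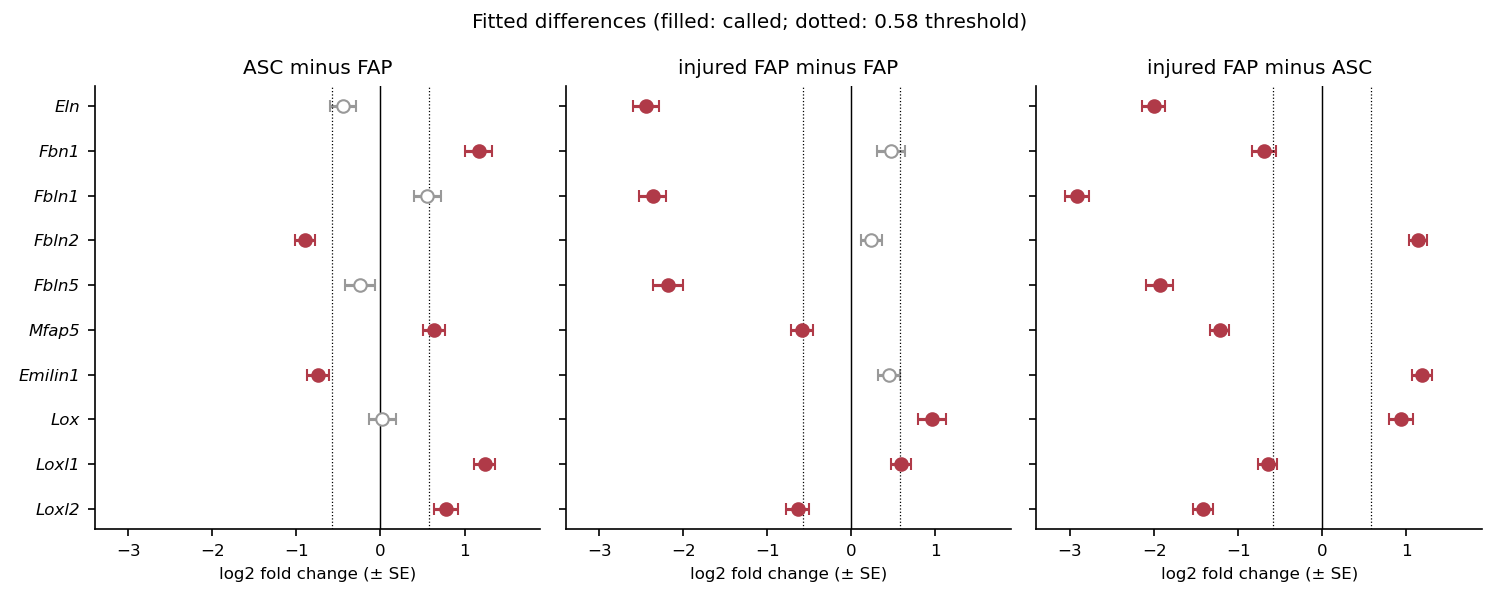
Log2 fold changes of the 10 members in each of the 3 comparisons, with bars of 1 standard error from limma, filled points for changes that passed the test and dotted lines at the threshold of 0.58 either way. After injury Eln, Fbln1 and Fbln5 lay between -2.45 and -2.18 and Lox at 0.96, while Fbn1 and Loxl1 in injured FAPs against ASCs and Mfap5, Fbln1 and Lox in ASCs against FAPs are the members whose sign turned under another scaling.

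Eln encodes tropoelastin, the soluble unit of the elastin core, and lies at chr5:134702593-134747323 on the minus strand of GRCm38. Its normalized value was 36425, 25505 and 32430.1 in ASC replicates 1 to 3. FAPs had 38975 and 45957, and injured FAPs had 8015, 7885.5 and 7417. All 3 injured libraries thus lay far below every ASC and FAP library, whereas the ASC and FAP values lay next to each other without overlap. Group means were 31453 ± 5525 (SD, n = 3), 42466 ± 4937 (SD, n = 2) and 7772 ± 315 (SD, n = 3). Eln fell 5.45-fold after injury (log2 fold change -2.45, standard error 0.15, adjusted p = 8.71e-07 by limma) and was lower in injured FAPs than in ASCs (-2.0, adjusted p = 7.24e-07). Between ASCs and FAPs it did not pass the fold threshold (-0.44, adjusted p = 0.0283), but it did so as lower in ASCs with quantile normalization (-1.05), a common 75th percentile (-0.65) or scaling to total reads (-1.01). In such bulk libraries, fewer cells that express a gene and less RNA of it per cell cannot be told apart.

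**Figure D2:**
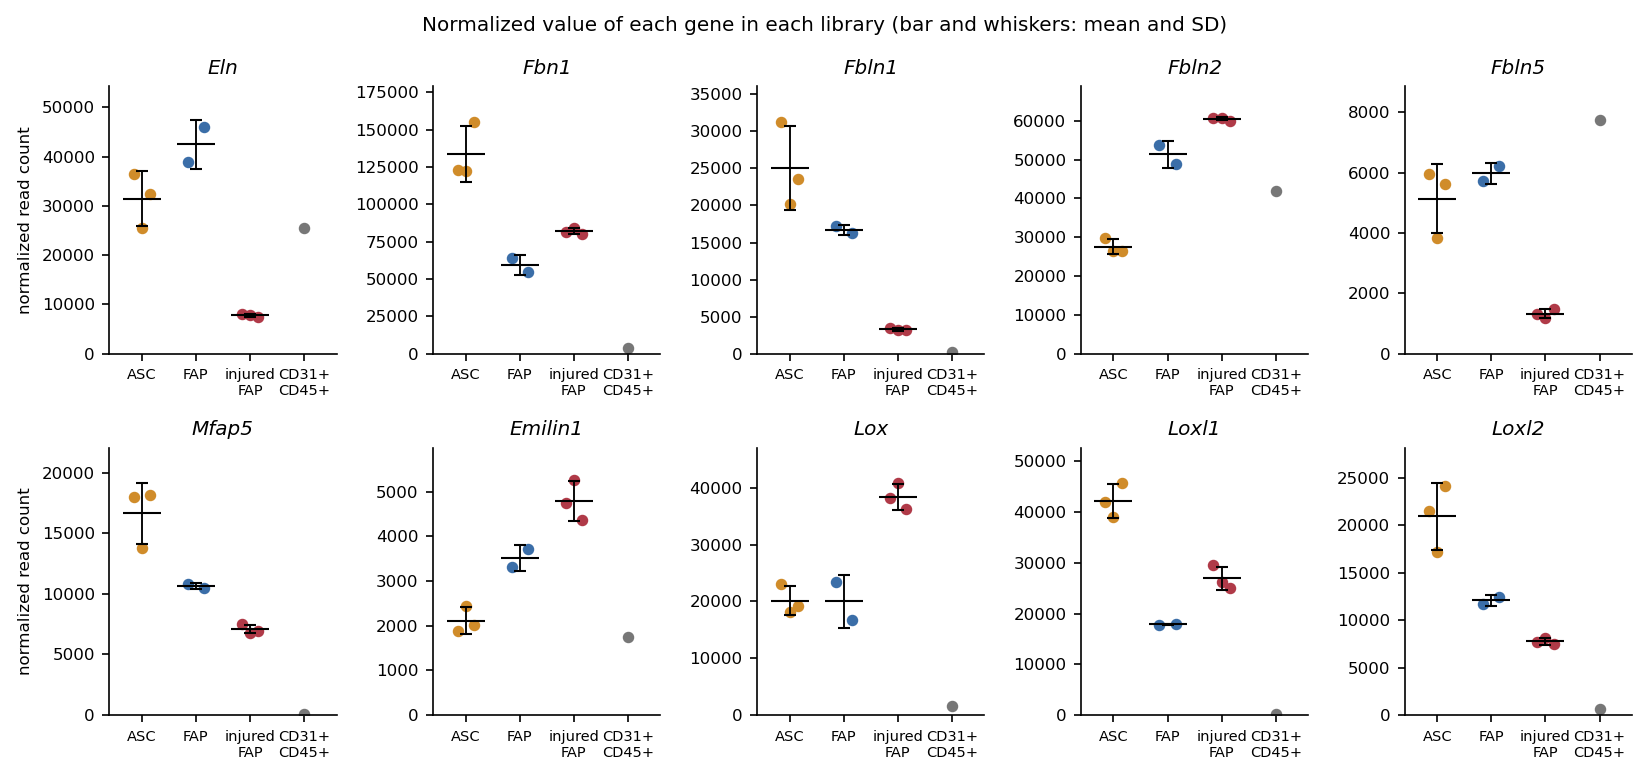
Normalized read counts of the 10 members in each library of ASCs, FAPs, injured FAPs and CD31+CD45+ cells, as points, with the group mean and standard deviation as bars. The 3 injured libraries sit at 7417 to 8015 for Eln, below all ASC and FAP libraries, and at 36323.5 to 40883 for Lox, above all of them.

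Fibrillin-1, the product of Fbn1, forms the microfibril scaffold. Fbn1 (chr2:125300594-125507993, minus strand) stood at 123262.5, 122417 and 155437 in ASCs, 64076 and 54729 in FAPs and 81746, 84339 and 80102 in injured FAPs. The groups did not overlap, with ASCs highest and FAPs lowest. It was 2.24-fold higher in ASCs than in FAPs (log2 fold change 1.17, standard error 0.16, adjusted p = 0.000159 by limma). After injury its log2 fold change of 0.47 (adjusted p = 0.0264) was short of the threshold, which it passed without FAP replicate 1 (0.58), with quantile normalization (0.89) and with scaling to total reads (0.60). Against ASCs it was lower in injured FAPs (-0.70, adjusted p = 0.0017), but quantile normalization turned this to 0.30 and scaling to total reads to 0.00. An opposite-strand gene, Gm9913, shares 20.1% of the exon length of Fbn1, and since the strand setting of the counting is not stated, reads of both may be mixed.

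Mfap5 encodes a small glycoprotein of microfibrils (chr6:122505845-122529290, plus strand). Its values were 17974, 13777 and 18195 in ASCs, 10849 and 10462.5 in FAPs and 7487, 6811 and 6979 in injured FAPs. ASCs were highest and injured FAPs lowest, with no overlap between groups. Mfap5 was higher in ASCs than in FAPs (log2 fold change 0.63, adjusted p = 0.00198 by limma) under the deposited scaling, but its sign turned with quantile normalization (-0.05) and the call was lost without ASC replicate 1 (0.57) or 3 (0.56), at a common 75th percentile (0.42) and on total reads (0.07). After injury it was lower by a narrow margin (-0.59, adjusted p = 0.00266), and the call was lost without FAP replicate 1 (-0.56), injured FAP replicate 2 (-0.56) or 3 (-0.58), with edgeR (-0.54), with DESeq2 (-0.57) and on total reads (-0.46). Injured FAPs were lower than ASCs (-1.22, adjusted p = 7.67e-06), short of the threshold only on total reads (-0.52).

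Emilin1 encodes a glycoprotein found between the elastin core and the microfibrils (chr5:30913402-30921277, plus strand). It stood at 1872, 2449.8 and 2012 in ASCs, 3309 and 3725 in FAPs and 4754, 5272 and 4358 in injured FAPs. The order was the reverse of that of Mfap5, from ASCs as the lowest to injured FAPs as the highest, again with no overlap. Emilin1 was lower in ASCs than in FAPs (log2 fold change -0.74, adjusted p = 0.000798 by limma) and higher in injured FAPs than in ASCs (1.19, adjusted p = 1.02e-05). Its log2 fold change after injury, 0.45 (adjusted p = 0.0132), was short of the threshold.

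Fibulins bind elastin and fibrillin and help to place one on the other. The products of Fbln5 and of its relative Efemp2 are needed for elastic fibres to form, and those of Fbln1 and Fbln2 are found in elastic fibres and basement membranes. Fbln1 stood at 31307, 20233 and 23519 in ASCs, 17213 and 16246.5 in FAPs and 3457, 3194 and 3116.5 in injured FAPs. Fbln5 stood at 5953, 3830.5 and 5616.5 in ASCs, 5727 and 6214 in FAPs and 1295, 1193 and 1479.7 in injured FAPs. For both, the injured libraries lay below all ASC and FAP libraries, while the Fbln5 values of ASCs and FAPs overlapped. Fbln2 went the other way, at 29810.5, 26475 and 26433 in ASCs, 53859 and 48921 in FAPs and 60805, 60721 and 60026 in injured FAPs.

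The tests separated these 3 fibulins. After injury Fbln1 fell 5.14-fold (log2 fold change -2.36, standard error 0.16, adjusted p = 1.32e-06 by limma) and Fbln5 fell 4.53-fold (-2.18, standard error 0.18, adjusted p = 3.49e-06), while Fbln2 did not pass (0.24, adjusted p = 0.11) other than with quantile normalization (0.71). Fbln2 was lower in ASCs than in FAPs (-0.90, adjusted p = 0.000134) and higher in injured FAPs than in ASCs (1.14, adjusted p = 7.81e-06). These values were -1.47 and 2.17 with quantile normalization and -1.47 and 1.83 on total reads. Injured FAPs were below ASCs in Fbln1 (-2.92, adjusted p = 9.45e-08) and in Fbln5 (-1.94, adjusted p = 2.44e-06). Between ASCs and FAPs, Fbln5 had a log2 fold change of -0.24 (adjusted p = 0.256) and was called lower in ASCs with quantile normalization (-0.80) and on total reads (-0.81). Fbln1 was near the threshold there (0.56, adjusted p = 0.0123), above it without ASC replicate 2 (0.70), ASC replicate 3 (0.59) or FAP replicate 1 (0.60) and with DESeq2 (0.59), and turned to -0.24 by quantile normalization and to -0.01 on total reads.

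Promoter sequences of RefSeq (GRCm38.p6, 250 bases before to 50 after the start of the gene) matched 5 members, Fbn1, Emilin1, Fbln1, Fbln2 and Fbln5, in 7 windows. Those of the 3 fibulins are shown because Fbln1 and Fbln5 fell together after injury while Fbln2 did not pass. They were searched on both strands for the TATA box (TATAAA), the AP-1 motif (TGANTCA), the TEAD motif (GGAATG) and the core of the hypoxia response element (ACGTG), and matches are in capitals. The motif ACGTG overlaps its own reverse complement in CACGTG. The windows are chr15:85205699-85205998 on the plus strand for Fbln1, chr12:101819070-101819369 on the minus strand for Fbln5 and chr6:91212514-91212813 on the plus strand for Fbln2, each written from 5′ to 3′.
Fbln1: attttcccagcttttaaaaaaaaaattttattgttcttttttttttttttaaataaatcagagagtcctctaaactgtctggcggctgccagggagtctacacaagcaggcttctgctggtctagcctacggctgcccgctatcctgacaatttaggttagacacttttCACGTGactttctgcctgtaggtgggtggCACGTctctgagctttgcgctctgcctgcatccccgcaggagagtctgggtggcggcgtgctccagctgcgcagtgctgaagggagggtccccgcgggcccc
Fbln5: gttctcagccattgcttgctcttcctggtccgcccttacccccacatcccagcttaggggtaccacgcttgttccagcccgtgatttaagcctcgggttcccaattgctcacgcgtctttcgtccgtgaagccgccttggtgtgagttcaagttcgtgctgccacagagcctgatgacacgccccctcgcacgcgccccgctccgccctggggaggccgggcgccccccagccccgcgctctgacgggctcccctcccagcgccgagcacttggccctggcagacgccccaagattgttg
Fbln2: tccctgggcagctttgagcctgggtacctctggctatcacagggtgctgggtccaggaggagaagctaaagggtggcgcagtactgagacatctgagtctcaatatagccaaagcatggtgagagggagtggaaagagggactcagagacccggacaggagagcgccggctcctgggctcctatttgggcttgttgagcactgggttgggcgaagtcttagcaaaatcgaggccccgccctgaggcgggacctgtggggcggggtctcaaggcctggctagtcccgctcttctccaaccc

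The Fbln1 window held ACGTG on the plus strand at position -80 from the start base and on the minus strand at -81 and -52. A second, overlapping window of Fbln1 held the same letters, and none of the 4 motifs was in the windows of the other 4 matched members. Among all 32851 promoter windows of this length, the hypoxia core was found in 19.6%, the TATA box in 13.6%, the AP-1 motif in 7.81% and the TEAD motif in 14.7%. The share of G and C was 51.7% in the Fbln1 window shown, 65.7% in that of Fbln5 and 60.3% in that of Fbln2, against a median of 52.7% over all windows. In a second window of each it was 64.0% for Fbln1 and 48.7% for Fbln5, so the order of these genes depended on the window. A match describes the letters only, and no factor's binding was measured.

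Levels of different genes were compared per kilobase of exon, as shares within a gene family. A scaling by 1 factor for each library leaves these shares as they are, but quantile normalization can change them. Among 6 fibulin genes, Fbln2 held 15.7% ± 0.364 (SD, n = 3) of the summed level for ASCs, 51.3% ± 1.84 (SD, n = 2) for FAPs and 70.4% ± 0.776 (SD, n = 3) for injured FAPs. Fbln1 held 20.7% ± 3.62, 24.4% ± 0.211 and 5.52% ± 0.213 in the same groups. Fbln5 was a small part throughout, at 2.69% ± 0.513, 5.51% ± 0.494 and 1.42% ± 0.174. The fibulin of highest level thus differed between tissues, since Efemp1 made up 53.8% in ASCs and 8.97% in FAPs. The EMILIN pair differed as well, with Emilin1 at 7.46% ± 1.89 (SD, n = 3) of Emilin1 and Emilin2 for ASCs, 48.5% ± 1.08 (SD, n = 2) for FAPs and 53.9% ± 3.59 (SD, n = 3) for injured FAPs. Fbn1 was nearly the whole of Fbn1 and Fbn2 in each group, at 99.6% to 99.7%.

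Lysyl oxidases start the crosslinks. Lox acts on elastin and collagen, Loxl1 is tied to elastin deposition, and Loxl2 is best known for its action on collagen of basement membranes. Lox stood at 23126, 18107 and 19270.0 in ASCs, 23365 and 16719 in FAPs and 38238, 40883 and 36323.5 in injured FAPs. Every injured library lay above every other library, and the ASC and FAP values overlapped. Means were 20168 ± 2627 (SD, n = 3), 20042 ± 4699.9 (SD, n = 2) and 38481 ± 2289 (SD, n = 3). Lox rose 1.95-fold after injury (log2 fold change 0.96, standard error 0.16, adjusted p = 0.000473 by limma) and was 1.92-fold higher in injured FAPs than in ASCs (0.94, adjusted p = 0.000231). Between ASCs and FAPs the log2 fold change of Lox was 0.02 (adjusted p = 0.92). Its sign turned under several settings, among them quantile normalization (-0.73), total reads (-0.55), the fit without FAP replicate 2 (-0.22) and edgeR (-0.04).

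Loxl1 (chr9:58287738-58313186, minus strand) had values of 42001, 39058 and 45682 in ASCs, 17824 and 17882 in FAPs and 29511, 26273 and 24986 in injured FAPs. ASCs were highest and FAPs lowest, without overlap, as for Fbn1. Loxl1 was 2.36-fold higher in ASCs than in FAPs (log2 fold change 1.24, standard error 0.12, adjusted p = 1.55e-05 by limma), though 0.33 and no longer called with quantile normalization. It passed the fold threshold by a narrow margin after injury (0.59, adjusted p = 0.00181), and the call was lost without injured FAP replicate 1 (0.52) or at a common 75th percentile (0.49). Injured FAPs were below ASCs (-0.65, adjusted p = 0.000422), but quantile normalization turned this to 0.27 and total reads to 0.05, and the call was lost with edgeR (-0.56) and at a common 75th percentile (-0.54).

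Loxl2 (chr14:69609068-69695834, plus strand) stood at 21511, 17169 and 24108 in ASCs, 11681 and 12478 in FAPs and 7666, 8137 and 7482 in injured FAPs. The 3 groups were again apart, in the order ASCs, FAPs and injured FAPs from high to low. Loxl2 fell after injury (log2 fold change -0.64, adjusted p = 0.00231 by limma), short of the threshold on total reads (-0.51). It was higher in ASCs than in FAPs (0.78, adjusted p = 0.000774), a call lost with quantile normalization (0.10), at a common 75th percentile (0.57) and on total reads (0.21). Injured FAPs were 2.67-fold below ASCs (-1.42, adjusted p = 4.04e-06). An antisense gene, Gm27177, shares 5.57% of the exon length of Loxl2, and Gm30003 shares 3.3% of that of Eln.

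Within the lysyl oxidase family of 5 genes, Lox held 18.6% ± 1.79 (SD, n = 3) of the level per kilobase for ASCs, 31.3% ± 5.13 (SD, n = 2) for FAPs and 40.5% ± 1.82 (SD, n = 3) for injured FAPs. Loxl1 held 56.4% ± 2.24, 40.8% ± 3.04 and 41.0% ± 2.0 in the same order. Loxl2 held 17.0% ± 1.79 in ASCs and 16.9% ± 2.0 in FAPs, against 7.22% ± 0.324 in injured FAPs. In ASCs the family was thus mostly Loxl1, and in injured FAPs Lox and Loxl1 had equal parts with overlapping ranges. With the longest transcript as the length of each gene, Lox held 18.5%, 31.0% and 40.0%.

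**Figure D3:**
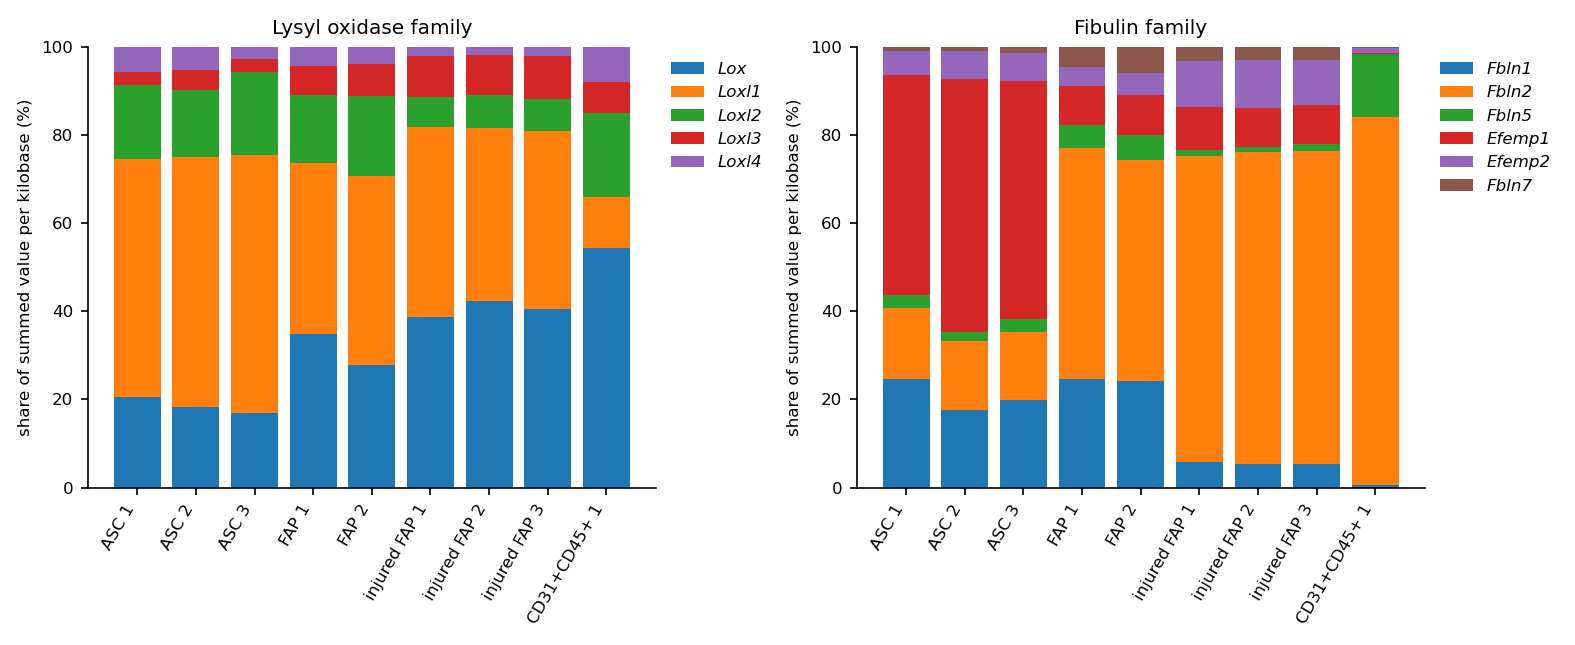
Share of each gene in the summed level per kilobase of the fibulin and the lysyl oxidase families (percent, stacked) in each library. Fbln2 makes up 15.7% of the fibulins in ASCs, 51.3% in FAPs and 70.4% in injured FAPs, and Lox 18.6%, 31.3% and 40.5% of the lysyl oxidases.

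Ratios of members within a library, per kilobase, show how enzymes and scaffold stood relative to elastin under any scaling by 1 factor for each library, though not under quantile normalization. Lox to Eln was 1.08, 1.20 and 1.01 in ASCs, 1.02 and 0.617 in FAPs and 8.09, 8.79 and 8.30 in injured FAPs. Each injured library therefore held several times more Lox per Eln than any other library, and ASCs and FAPs overlapped. Loxl1 to Eln was 3.35 ± 0.474 (SD, n = 3) for ASCs, 1.04 ± 0.119 (SD, n = 2) for FAPs and 8.50 ± 0.473 (SD, n = 3) for injured FAPs. Fbn1 to Eln followed the same order, at 2.89 ± 0.545, 0.946 ± 0.214 and 7.05 ± 0.214. Fbln5 to Eln differed less, at 0.190 ± 0.0135 in ASCs, 0.165 ± 0.00972 in FAPs and 0.200 ± 0.0298 in injured FAPs, with FAPs below the other groups without overlap. With quantile normalization the log2 change after injury went from 0.27 to -0.09 for Fbln5 to Eln and from 3.41 to 3.56 for Lox to Eln. With the longest transcript as length, Lox to Eln was 0.525 ± 0.0477 in ASCs, 0.391 ± 0.135 in FAPs and 4.02 ± 0.172 in injured FAPs, so whether Lox stood above or below Eln in ASCs depended on the length, while the fold between groups is the same by construction. Loxl1 to Eln was then 1.59, 0.495 and 4.04 and Fbn1 to Eln 1.39, 0.456 and 3.40. These ratios are descriptions and were not tested.

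Pairs other than those with Eln moved too. Fbln1 to Fbln2 was 1.32 ± 0.209 (SD, n = 3) for ASCs, 0.475 ± 0.0129 (SD, n = 2) for FAPs and 0.0784 ± 0.0039 (SD, n = 3) for injured FAPs. Mfap5 to Fbn1 was 0.423 ± 0.061 in ASCs, 0.609 ± 0.0522 in FAPs and 0.292 ± 0.0184 in injured FAPs. Loxl2 to Lox was 0.922 ± 0.159, 0.551 ± 0.154 and 0.178 ± 0.00325 in the same groups. Against Col1a1, the main fibrillar collagen gene, Eln stood at 0.0180 ± 0.000926 in ASCs, 0.0423 ± 0.00137 in FAPs and 0.0233 ± 0.00141 in injured FAPs. Eln per Col1a1 was thus lower after injury, although Col1a1 itself fell, while Lox per Col1a1 went from 0.0347 ± 0.0131 in FAPs to 0.196 ± 0.00758 in injured FAPs. With quantile normalization the log2 change after injury went from -0.86 to -2.32 for Eln to Col1a1 and from 2.55 to 1.24 for Lox to Col1a1, and that of Eln to Col1a1 in injured FAPs against ASCs turned from 0.37 to -1.18.

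**Figure D4:**
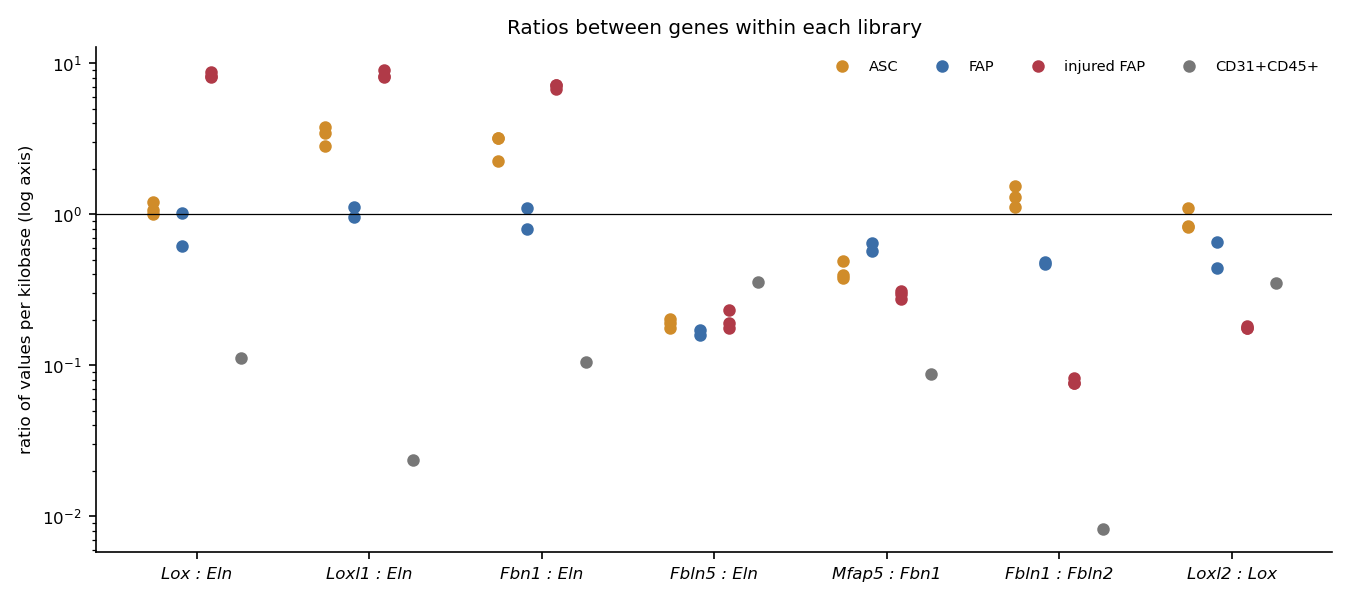
Ratios between members per kilobase of exon in each library (log axis), with 1 point for each library of ASCs, FAPs, injured FAPs and CD31+CD45+ cells. Lox to Eln lies between 8.09 and 8.79 in injured FAPs and between 0.617 and 1.20 in the other stromal libraries, whereas Fbln5 to Eln lies between 0.158 and 0.234 in all 8.

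The order of members by level per kilobase differed between groups. In ASCs Loxl1 (12814) and Fbn1 (11025) were at the top with overlapping ranges, Fbln1, Mfap5, Fbln2, Lox, Eln and Loxl2 followed from 5728 to 3872 with each overlapping the next, and Fbln5 (743) and Emilin1 (428) were lowest. In FAPs Fbln2 (8067.5) stood above the rest, Loxl1, Eln, Fbn1, Lox and Fbln1 (5415 to 3830.1) overlapped from one to the next, and Mfap5 (2969), Loxl2 (2235), Fbln5 (864) and Emilin1 (712) were apart from their neighbours. Injured FAPs had Fbln2 (9500.4) first, Loxl1 (8166) and Lox (8054) overlapping, and then Fbn1 (6766), with the other 6 members at 1976 or less. There Emilin1 (971) and Eln (959.8) overlapped, and Fbln1 (745) and Fbln5 (191) were lowest. Eln depended most on the length used, and with its longest transcript it stood at 8163 in ASCs, 11022 in FAPs and 2017 in injured FAPs, which put it beside Fbln2 (10737.5 by the same length) in FAPs with overlapping ranges.

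Scaling of the libraries bears on all fold changes. The share of value in the top 100 genes was 40.3% to 43.1% for ASCs, 35.9% and 36.3% for FAPs and 24.7% to 26.1% for injured FAPs, and total normalized values were higher in ASCs, at 30975894 to 36203055, than in FAPs, at 22871402.5 and 22733684. Scaling to total reads, an alternative chosen after the data were seen, moved the median log2 fold change of all genes to -0.557 for ASCs against FAPs, 0.079 after injury and 0.715 for injured FAPs against ASCs. A common 75th percentile moved it to -0.203, -0.145 and 0.135. Of the genes called, 49.6% were higher in ASCs than in FAPs as deposited, 37.2% at a common 75th percentile and 20.2% on total reads. For injured FAPs against ASCs the part called higher was 49.3% as deposited and 81.3% on total reads, and for the injury comparison it was 47.4% as deposited, 41.8% at a common 75th percentile and 54.9% on total reads.

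Both of these scalings move all genes of a library by the same factor, so the distance of a member from the median of all genes is fixed by construction and is no test of it. Quantile normalization can change it. Fbn1 in injured FAPs against ASCs lay -0.72 from the median as deposited and 0.27 above it with quantile normalization, and Loxl1 in the same comparison lay at -0.67 and at 0.24. Over all 20 alternatives tried, Eln after injury ranged from -2.56 to -2.31, Fbln1 from -2.59 to -2.23, Fbln5 from -2.45 to -2.05 and Lox from 0.718 to 1.2, and each kept its call in all 20.

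**Figure D5:**
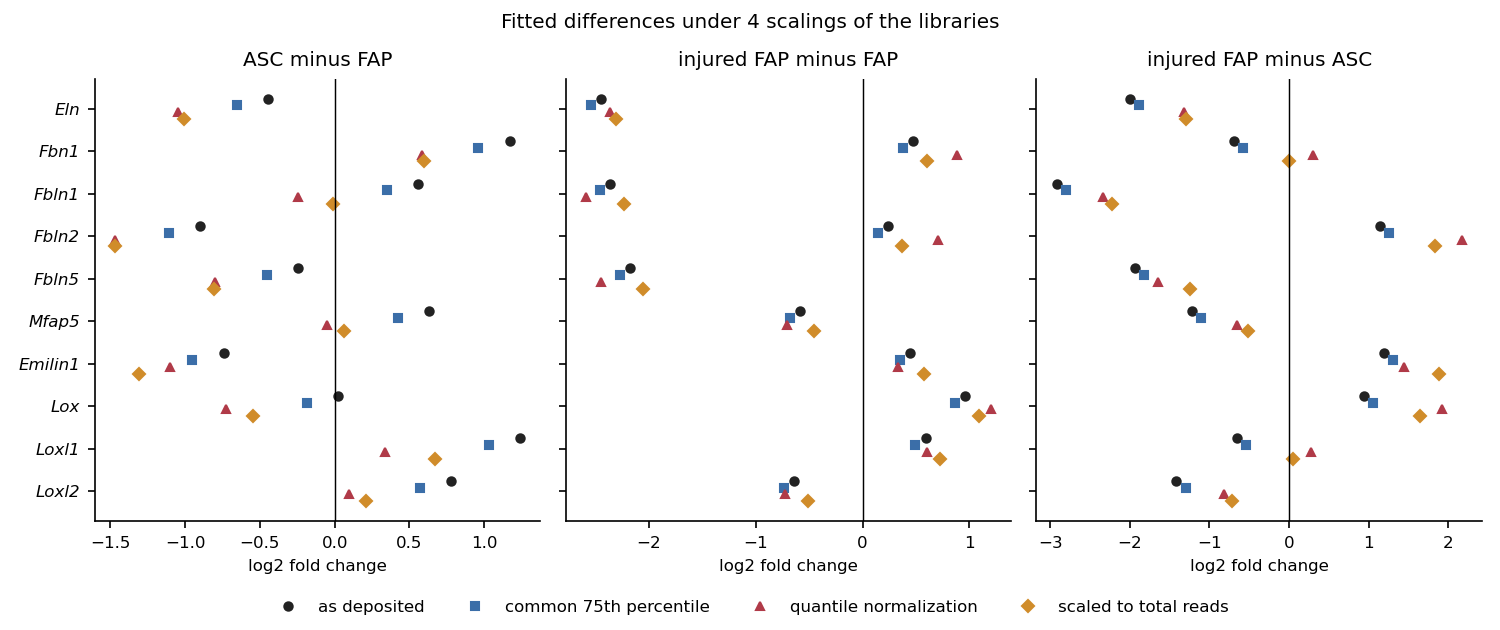
Log2 fold changes of the 10 members in the 3 comparisons under the scaling as deposited, a common 75th percentile, quantile normalization and total reads. Eln, Fbln1 and Fbln5 after injury stay between -2.59 and -2.05 under all 4, while Fbn1 in injured FAPs against ASCs goes from -0.70 as deposited to 0.00 on total reads and 0.30 with quantile normalization.

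Among 10592 genes with a mean of at least 100, those with the pattern nearest to 3 of the members over the 8 libraries were found by the root mean square distance of log2 values after each gene was centred on its own mean. Nearest to Eln were Fmo1 (distance 0.0945), Mettl7a1 (0.138) and Prss12 (0.139), and Fbln5 ranked 7 at 0.16. Nearest to Fbn1 were B3galnt1 (0.0849), Retsat (0.0978) and Lyst (0.107), and Loxl1 ranked 6 at 0.11. For Lox they were Npat (0.132), Nutf2 (0.134) and Macir (0.137), with Fbln2 the nearest member at rank 1963 (0.380). The members thus held several patterns, with Fbln5 close to Eln, Loxl1 close to Fbn1, and Lox far from both.

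Other genes of the fibre were read from 5 wider lists, whose counts stand beside 24.9% of all genes tested that rose and 27.7% that fell after injury, 23.4% higher and 23.8% lower in ASCs than in FAPs, and 25% higher and 25.8% lower in injured FAPs than in ASCs. Lists of 6 to 10 genes are small, and their excess over these shares was not tested. Of 10 microfibril partners, proteins of or around the fibrillin scaffold, 1 rose and 7 fell after injury (median log2 fold change -1.73), 4 were higher and 5 lower in ASCs than in FAPs (-0.81) and 1 was higher and 6 lower in injured FAPs than in ASCs (-0.82). On total reads these were 2 higher and 6 lower in ASCs than in FAPs (-1.37) and 3 higher and 3 lower in injured FAPs than in ASCs (-0.13), and with quantile normalization 2 and 6 (-1.35) and 2 and 4 (-0.45). Without FAP replicate 1, 2 were higher and 5 lower in ASCs than in FAPs (-0.92). Ltbp2, which binds fibrillin-1 and can hold Fbln5, was the one that rose, from 1274 ± 395 (SD, n = 2) for FAPs to 17108 ± 875 (SD, n = 3) for injured FAPs (3.78, adjusted p = 2.61e-07 by limma), and it stood at 166 ± 21.8 (SD, n = 3) for ASCs (-2.90 against FAPs, adjusted p = 6.44e-07). Injured FAPs exceeded ASCs in Ltbp2 by a log2 fold change of 6.68 (adjusted p = 2.26e-09). Falls after injury included Adamtsl2 (-3.10, adjusted p = 2.02e-06) and Mfap4 (-2.85, adjusted p = 2.19e-06). Ltbp4, whose product helps Fbln5 reach the microfibril, was lower in ASCs than in FAPs (-2.20, adjusted p = 6.10e-06), as was Adamtsl2 (-3.22, adjusted p = 1.67e-06). Mfap2 (-2.92, adjusted p = 7.04e-08) and Adamtsl4 (-2.49, adjusted p = 1.16e-07) were lower in injured FAPs than in ASCs.

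Of 7 other fibulin and EMILIN genes, 6 were tested, since Mmrn1 was below the filter. In ASCs against FAPs 4 were higher and 2 lower, with a median of 2.04, or 1.35 with Mmrn2, at 0 in both FAP libraries, set to its bound, and 1.17 with a pseudocount of 8. Efemp1 (3.39, adjusted p = 9.76e-09 by limma) and Emilin2 (2.83, adjusted p = 1.12e-07) were higher in ASCs and Hmcn1 lower (-3.48, adjusted p = 6.04e-08). After injury 2 rose and 2 fell (median -0.03), among them Efemp2 as a rise (1.01, adjusted p = 9.31e-06) and Hmcn1 (-1.26, adjusted p = 2.32e-05) and Fbln7 (-1.04, adjusted p = 0.000452) as falls. The other rise, of Mmrn2 (mean of 9.63 in ASCs), was set by the filter, which this gene passed only through the injured libraries. With the filter at a mean of 50, 1 rose and 2 fell (median -0.19). Between injured FAPs and ASCs 2 were higher and 2 lower (median 0.15, or 0.85 on total reads, with 3 higher), with Efemp1 at -3.58 (adjusted p = 2.28e-09), Emilin2 at -2.70 (adjusted p = 3.63e-08) and Hmcn1 at 2.22 (adjusted p = 1.84e-07). Efemp2, needed for Lox to meet elastin, therefore rose after injury while its relative Fbln5 fell.

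Among 9 other crosslinking enzymes and activators, 4 rose and 1 fell after injury (median log2 fold change 0.16), 4 were higher and 1 lower in ASCs than in FAPs (0.32), and 3 were higher and 3 lower in injured FAPs than in ASCs (-0.13). The 5 called after injury and the 5 called in ASCs against FAPs lie near the shares of all genes called, 52.6% and 47.2%. The 6 called in injured FAPs against ASCs stand beside 50.8%. By direction, the 4 rises and 1 fall after injury stand beside 24.9% and 27.7% of all genes. The 4 higher and 1 lower in ASCs than in FAPs stand beside 23.4% and 23.8%. After injury the counts were 4 higher and 2 lower at a common 75th percentile (0.06) and 4 and 4 with quantile normalization (0.06). In ASCs against FAPs the direction turned, to 1 higher and 4 lower with quantile normalization (-0.21) and to 0 higher and 4 lower on total reads (-0.25). The median of injured FAPs against ASCs turned to 0.21 and 0.57 under the same settings. The rises after injury included Tll1, a protease of the Bmp1 group that activates lysyl oxidase (1.53, adjusted p = 1.00e-05 by limma), Loxl3 (1.04, adjusted p = 5.82e-05) and Plod2, which hydroxylates lysines of collagen ends (0.86, adjusted p = 0.0011). The 1 fall as deposited, named outside the rule of largest changes, was Bmp1 itself, from 18784 ± 3215 (SD, n = 2) for FAPs to 10527.5 ± 554 (SD, n = 3) for injured FAPs (-0.83, adjusted p = 0.0021). Bmp1 was higher in ASCs than in FAPs (1.01, adjusted p = 0.000719), as was Tll1 (0.88, adjusted p = 0.000495), and Plod2 was lower (-1.03, adjusted p = 0.000392). On total reads the calls of Bmp1 (0.44) and Tll1 (0.32) were lost, and with quantile normalization that of Bmp1 (0.20). Lox therefore rose after injury beside Loxl3 and Plod2, and of the activators Tll1 rose and Bmp1 fell. In injured FAPs against ASCs, Plod2 was higher (1.89, adjusted p = 1.86e-06) and Bmp1 (-1.83, adjusted p = 3.67e-06) and Loxl4 (-1.31, adjusted p = 0.00042) were lower.

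Of 8 proteases that can degrade elastin, 6 were tested, with Mmp12 and Elane below the filter. In ASCs 5 were higher than in FAPs and the other did not pass (median 1.30, or 1.21 with Ctss, at 0 in both FAP libraries, at its bound), with Ctsl (1.38), Ctsk (1.22) and Mmp14 (1.21) the largest at a mean of 100 or more. The others were Mmp2 (0.92) and, at lower values, Mmp9 (3.03). Quantile normalization ended the calls of Ctsk (0.57), Mmp14 (0.41) and Mmp2 (0.22), which left 2 (median 0.60), and total reads that of Mmp2 (0.35). After injury 2 rose and 2 fell (median -0.44), and Mmp2 (-1.28, adjusted p = 7.75e-05 by limma) and Ctsk (-1.05, adjusted p = 9.58e-05) were the falls. The rises, named outside the rule, were Mmp9 (0 and 2.82 in FAPs, 88.7, 149 and 118 in injured FAPs) and Ctss (0 in both FAP libraries, 63.6, 312 and 51.1 in injured FAPs). Replicate 2 of the injured FAPs, highest in both, also had the highest sum of leukocyte genes (3051), and the part of leukocytes in these rises was not tested. Ctss, at a mean of 2.53 in ASCs, passed the filter only through the injured libraries, so its rise was set by the filter. Injured FAPs against ASCs had 2 higher and 4 lower (median -1.74), with Ctsk at -2.27, Mmp2 at -2.20 and Ctsl at -1.84, and a median of -1.06 with quantile normalization and -1.04 on total reads. Cathepsin K and Mmp2, which cleave elastin and collagen, thus fell in the same comparison as Eln.

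Of 6 fibrillar collagen genes, substrates of the same crosslinking enzymes, 5 fell after injury and the other did not pass (median log2 fold change -1.14), with falls of Col1a1 (-1.59, adjusted p = 0.000385 by limma), Col1a2 (-1.23, adjusted p = 0.000675) and Col5a3 (-1.34, adjusted p = 2.67e-05). Quantile normalization ended the calls of Col1a1 (-0.04) and Col1a2 (-0.12) there and turned Col3a1 to 0.37, which left 1 of the 5 falls (median -0.08). In ASCs 5 were higher than in FAPs and the other did not pass (median 0.71), with Col3a1 (1.16), Col1a2 (0.88) and Col1a1 (0.79) the largest, though quantile normalization turned Col1a2 to -0.12 and left none called (median -0.05), and total reads left 1 (median 0.14). These 3 calls were lost with only the groups compared in the fit or with quantile normalization, those of Col1a2 (0.31) and Col1a1 (0.22) on total reads, and that of Col1a1 also at a common 75th percentile (0.58), with no filter (0.79) and without ASC replicate 1 (0.71), FAP replicate 1 (0.63) or injured FAP replicate 2 or 3 (0.79 each). Of the 6 genes, 3 were called without FAP replicate 2 (median 0.75) and 2 at a common 75th percentile (0.50). Injured FAPs were lower than ASCs in 5 of them (median -1.88), with Col1a1 at -2.37, Col1a2 at -2.11 and Col3a1 at -2.09, although quantile normalization turned Col3a1 to 0.07 and left Col1a1 at -0.14 and Col1a2 at 0.00, not called, with 1 higher and 1 lower in all (median -0.07). Lox thus rose in the comparison in which most of its collagen substrates fell as deposited.

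Markers of other cell types moved with some of these results. A list of 12 smooth muscle and pericyte genes, cells which also make elastin, summed to 7521, 6161 and 6919.6 in ASCs, 32310.5 and 29215 in FAPs, 14861.5, 14502 and 14591.5 in injured FAPs and 109458 in the CD31+CD45+ library. None of its genes was at 0, and the most abundant was Abcc9 (3902 and 3182) or Smtn (2615) in ASCs, Rgs5 (6147.5) or Smtn (6203) in FAPs, Cspg4 (4655 and 4406) or Smtn (3938.5) in injured FAPs and Rgs5 (40800.3) in the CD31+CD45+ library. After injury 11 of the 12 fell (27.7% of all genes), and 11 were lower in ASCs than in FAPs (23.8%). Cnn1, counted in both (mean of 16.2 over the 8 libraries), passed the filter only through the FAP libraries, so its direction was set by the filter. The list and Eln therefore both fell after injury, and the part of these cells in the fall of Eln was not tested. Injured FAPs against ASCs had 9 higher (25% of all genes) and 2 lower (25.8%), while Eln was lower there (log2 fold change -2.0).

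A list of 8 tenocyte genes summed to 3437, 2770.4 and 2567 in ASCs, 272275 and 306097.5 in FAPs, 198957, 201749 and 185555 in injured FAPs and 17982 in the CD31+CD45+ library. Fmod was the most abundant in ASCs (1332 to 2221) and FAPs (119690.1 and 144393.5) and Thbs4 in injured FAPs (139812.5 to 145137), and Chad was at 0 in ASC replicate 1. All 8 were lower in ASCs than in FAPs (23.8% of all genes) and 5 fell after injury (27.7%). All 8 were higher in injured FAPs than in ASCs (25%). Fbln2 and Emilin1, lower in ASCs and not called after injury, moved with this list between ASCs and both kinds of FAPs, and its part in their levels was not tested.

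Leukocyte genes (15) summed to 619, 539 and 552 in ASCs, 292 and 546 in FAPs, 723, 3051 and 635 in injured FAPs and 20633 in the CD31+CD45+ library. Cd68 was the most abundant in both FAP libraries (254 and 477), where 11 of the 15, Ptprc and Lyz2 among them, were at 0, and Lyz2 (725) in injured FAP replicate 2. Of 10 tested, 7 rose after injury (24.9% of all genes) and 4 were higher in ASCs than in FAPs (23.4%). In injured FAPs against ASCs 6 were higher (25%) and 2 lower (25.8%). The 7 that rose were all at 0 in both FAP libraries. Of these, Adgre1, Cd52, Laptm5 and Tyrobp (means of 16.4, 15.6, 75.3 and 18.5 over the 8 libraries) passed the filter only through the injured libraries. So did Itgam (38.0), which was called higher only against ASCs. Their direction was thus set by the filter. Without injured FAP replicate 2 the falls after injury were as large, at -2.46 for Eln, -2.35 for Fbln1 and -2.11 for Fbln5, and Lox rose by 0.92. The count of members called was then 6, because Mfap5 was lost, and 6910.0 of the 13601 genes tested were called, against 7153 with all libraries. The injured libraries that remained still held leukocyte genes (sums of 723 and 635). The part of leukocytes in the changes of members was not tested.

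Endothelial genes (14) summed to 11628, 9936 and 11246 in ASCs, 18307 and 16343 in FAPs, 12033, 12270.4 and 10134 in injured FAPs and 442660.4 in the CD31+CD45+ library. Tek was the most abundant in ASCs (4841 to 6699.9), Eng in FAPs (11046 and 11409) and in injured FAPs (8117 to 9739), and Cdh5 (98652) in the CD31+CD45+ library. Emcn, Cldn5, Vwf and Plvap were at 0 in both FAP libraries, and Pecam1 in FAP replicate 2. Of 13 tested, 3 rose (24.9% of all genes) and 6 fell (27.7%) after injury. In ASCs against FAPs 4 were higher (23.4%) and 8 lower (23.8%). In injured FAPs against ASCs 8 were higher (25%) and 2 lower (25.8%). The 3 that rose were Emcn, Cldn5 and Plvap, all at 0 in both FAP libraries. Of these, Emcn and Cldn5 (means of 25.7 and 14.7 over the 8 libraries) passed the filter only through the injured libraries, so their rise was set by the filter. The part of endothelial cells in the changes of members was not tested.

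The other lists were low in the stromal libraries. Adipocyte genes (8) summed to 942.8 to 1123.5 for ASCs, 853 and 247 for FAPs and 176 to 269.7 for injured FAPs, with Fabp4 the most abundant in each and Adipoq, Lep, Retn and Cfd at 0 in injured FAP replicate 3. Of 5 tested, 4 were higher in ASCs than in FAPs (23.4% of all genes) and 2 fell after injury (27.7%). All 5 were lower in injured FAPs than in ASCs (25.8%). Adipoq, Plin1 and Cfd (means of 17.3, 20.9 and 22.5 over the 8 libraries) passed the filter only through the ASC libraries. Their higher values in ASCs were thus set by the filter. Skeletal muscle fibre genes (10) summed to 146 to 184.5 for ASCs, 860.6 and 1001.0 for FAPs and 255 to 322 for injured FAPs. Of 8 tested, 5 fell after injury (27.7% of all genes) and 7 were lower in ASCs than in FAPs (23.8%). Among these, Myh1, Mb and Tnni2 (means of 10.8, 17.4 and 15.7 over the 8 libraries) passed the filter only through the FAP libraries. Where they were called, their direction was thus set by the filter. Satellite cell genes (5) summed to at most 134.5 in any stromal library, and of 2 tested 1, Pax7, fell after injury (27.7% of all genes). Pax7 (mean of 15.65 over the 8 libraries) passed the filter only through the FAP libraries, so its fall was set by the filter. Schwann cell genes (6) summed to 842 to 1219 for ASCs, 1059 and 1847 for FAPs and 399 to 677 for injured FAPs. Of 5 tested, 3 fell after injury (27.7% of all genes) and 4 were lower in ASCs than in FAPs (23.8%). The part of these cell types in the members' values was not tested.

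In the CD31+CD45+ library members were unevenly present. Fbln2 stood at 42034, Eln at 25415 and Fbln5 at 7736, within the range of the stromal libraries for the first 2 and above it for Fbln5. Fbn1 (3996), Lox (1667), Loxl2 (661), Loxl1 (245), Fbln1 (235) and Mfap5 (103.6, from 66 reads) were far below every stromal library, and Emilin1, at 1742, was just below the lowest of them. Per kilobase, Fbln2 made up 83.5% and Fbln5 14.2% of the fibulins there, and Lox 54.5% and Loxl1 11.6% of the lysyl oxidases. Lox to Eln was 0.111, below all stromal libraries, and Fbln5 to Eln was 0.357, above them. This library also had the highest sum of smooth muscle and pericyte genes (109458, with Rgs5 at 40800.3), against at most 32310.5 in a stromal library. The part of those cells in its Eln and fibulin values was not tested, so the values describe the 1 library and not CD31+ or CD45+ cells as such.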

How the data were processed

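RNA sequencing (paired-end) was analysed in 9 libraries of C57Bl/6 mice (C57Bl/6 J in the methods), 8 of stromal cells in 3 groups and 1 of CD31+CD45+ cells, with the depth of each given above. The deposited signal values are read counts per gene that the authors divided by a size factor for each library, after fastq_illumina_filter 0.1, FastQC 0.11.9, HISAT2 2.2.1 on mm10, featureCounts of Subread 2.0.1 and DESeq2 1.34.0. Multiplied back, 100% of the values of every library came out whole within a tolerance of 0.01 reads. The table held 2 empty columns, which were not used, and 6684 of its 26214 genes were at 0 in all libraries.

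Values plus a pseudocount of 1 were taken to log2 and fitted with limma 3.58.1 in R 4.3.3 (a mean per group, a trend in the prior variance, 5 residual degrees of freedom), over the 13601 genes at a mean of 10 or more, with Benjamini-Hochberg adjustment over all of them. The CD31+CD45+ library entered no fit. The alternatives were pseudocounts of 0.5 and 8, no filter or a mean of 50, quantile normalization, a common 75th percentile, an unadjusted p, only the groups compared, the replicate number as a term, each library left out, and, on the recovered reads, edgeR 4.0.16 and DESeq2 1.42.0. Scaling to total reads was added after the data were seen. On the log2(value + 1) scale, low values give fold changes that are too small. For the tissue comparison (ASCs and FAPs), the injury comparison and injured FAPs with ASCs, limma called 6416, 7153 and 6909 genes, edgeR 6450.0, 7303 and 7000.0, and DESeq2 6412, 7227 and 6865. The limma procedure was tested on simulated data.

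The 10 members and all gene lists were chosen with earlier results of these data known. All members are named, and of each wider list at most 3 genes per comparison, those with the largest change among the genes called at a mean of 100 or more. Genes listed at 0 in both libraries of a group were also set to the bound that 3 reads give. Lengths and positions came from GENCODE M21 (GRCm38), which matched 24870 genes, with the union of exons as the length and the longest transcript as an alternative. Promoters came from RefSeq. Tables and figures were made with Python 3.11.15, pandas 2.3.3, numpy 2.4.6 and matplotlib 3.10.9.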

Additional observations from a re-analysis of the deposited data

Results flagged for a closer look

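Fbln5 stood at 7735.7 in the CD31+CD45+ library, a sample that none of the comparisons use, above all 5 libraries of NaCl-injected mice, of which the highest was 6214 in FAP replicate 2. The value rests on 4929 reads. The library has no replicate, so the difference was not tested. No other member stood above all of these 5 libraries there.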

How the results depend on the processing

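In the injury comparison no member reversed, and Eln, Fbln1, Fbln5 and Lox kept their calls under all 20 alternatives, with adjusted p of at most 3.67e-05, 5.72e-05, 0.000146 and 0.00889 (limma, edgeR or DESeq2). The count of members called ranged from 6 to 9 after injury, from 5 to 7 in ASCs against FAPs and from 7 to 10 in injured FAPs against ASCs. Over the 13601 genes tested, the alternatives that kept this filter called 6323 to 7431, 5653 to 7911 and 6582 to 9069 genes in the same order. With no filter they were 7941, 7227 and 7696 of 19249 genes, and with a mean of 50 they were 6112, 5341 and 5877 of 11644. For the other named genes the calls that changed were mostly under a scaling.

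In ASCs against FAPs, quantile normalization turned Fbln1 to -0.242, Mfap5 to -0.0509, Lox to -0.726, Col1a2 to -0.12 and Col5a3 to -0.534. Scaling to total reads turned Fbln1 to -0.0102, Lox to -0.546 and Col5a3 to -0.357. Lox was -0.188 at a common 75th percentile and -0.0361 with edgeR, and with single libraries left out it went from -0.22 (without FAP replicate 2) to 0.263 (without FAP replicate 1), with -0.0815 without ASC replicate 1. After injury, quantile normalization turned Emilin2 to -0.0242 and Col3a1 to 0.372. In injured FAPs against ASCs it turned Fbn1 to 0.302, Loxl1 to 0.273, Ltbp4 to 0.709, Efemp2 to 0.192 and Col3a1 to 0.0713, and scaling to total reads gave Fbn1 0.00307, Loxl1 0.048, Ltbp4 0.619 and Efemp2 0.475. Ltbp4 was 0.0345 at a common 75th percentile and, with single libraries left out, went from -0.244 (without ASC replicate 3) to 0.135 (without ASC replicate 1). Adamtsl2 went from -0.159 (without ASC replicate 2) to 0.262 (without ASC replicate 1). The cause was not tested.

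Deviations of same-numbered replicates of different groups from the group means correlated with r from -0.054 to 0.045 across genes. Differently numbered pairs went from -0.123 to 0.123. The deviations of 2 FAP libraries mirror each other, so these values cannot show whether same-numbered replicates shared more than a number. With the replicate number as a block, 7 members were called in ASCs against FAPs, 7 after injury and 10 in injured FAPs against ASCs, and 6287, 7046 and 6861 genes in all. The block brought Fbln1 over the threshold in ASCs against FAPs (0.59) and changed no other call of a member.

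The main limits are 2 FAP libraries, cells pooled before the replicates were made, tissue and digestion that cannot be told apart, a strand setting that is not stated, and a single CD31+CD45+ library. Counting error was small for the members, since each had at least 1421 reads in every stromal library. Protein and fibre amounts were not measured.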
